A study of Mus musculus with 4 samples.

Results

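The mouse genome annotation examined here holds genes that are written out more than once, because the assembly carries alternate contigs beside its chromosomes. An alternate contig is a stretch of sequence that gives another version of a region, and its name ends in "_alt". Every gene row on such a contig was taken, except rows of symbols that start with H2- or Zscan4. This gave 984 gene symbols of 26161 in the whole table, which is 3.76%. Their transcript rows numbered 2664 of 50703 (5.25%), and 2256 of them had a coding part. Transcripts of a symbol that overlapped on a contig strand, by 1 base or more, were joined to 1 locus, which left 1435 loci of 28072 (5.11%) on 103 contigs. The exclusion removed 41 symbols and 108 loci from the same contigs.

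The series is a CUT&Tag study of RNA polymerase I in C64 cells, a line of mouse embryonic stem cells. CUT&Tag places a transposase at an antibody-bound protein and sequences the DNA next to it. The labels give 2 control libraries with no treatment and 2 libraries of cells exposed to 500 nM auxin for 6 h, name no degron-tagged protein and no strain for C64, and do not say whether replicates were separate cultures. The annotation has no column for any of the 4 libraries, so every value below is a fixed coordinate or a count of coordinates, with no replicate error and no comparison of auxin with control.

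The assembled mouse chromosomes come from the inbred strain C57BL/6J, and alternate contigs of the mouse assembly carry haplotypes of other inbred strains. Neither the contig names nor the annotation says which strain a given contig represents. Regions with alternate versions include clusters of duplicated immune genes, such as the major histocompatibility complex (MHC), which encodes antigen-presenting molecules, and the natural killer (NK) gene complex, which encodes lectin-like receptors of NK cells. In such clusters strains can differ in the number, order and length of genes, and reads from a gene present on both the chromosome and a contig have more than one place to align.

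Of the 984 symbols, 839 (85.3%) were protein-coding genes in RefSeq, 81 were long non-coding RNAs, 43 were microRNAs, 15 were transcribed pseudogenes and 5 were small nucleolar RNAs. The remaining symbol was in a miscellaneous RNA class. The microRNAs are shown first, since their short loci kept the same span on every contig. A microRNA is a short RNA that guides silencing of messenger RNAs through its seed, bases 2 to 8 of the mature strand. Mature sequences from RefSeq (GRCm38.p6) were found for 40 of the 43 microRNA genes and gave 68 mature strands with 66 distinct seeds. The strands below are well-known members of the set and both groups with a shared seed, with the seed in capitals. They are reference sequences, and the sequences of the contigs themselves were not used here.
miR-195a-5p: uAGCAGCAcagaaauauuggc
miR-497a-5p: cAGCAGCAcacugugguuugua
miR-6967-5p: cAGGGAGGgauaaagaccagu
miR-7016-5p: cAGGGAGGggagcgagaguag
miR-34a-5p: uGGCAGUGucuuagcugguugu
miR-142a-3p: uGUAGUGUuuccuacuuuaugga
miR-219a-5p: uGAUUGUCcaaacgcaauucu
miR-301a-3p: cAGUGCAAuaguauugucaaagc

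The seed AGCAGCA is shared by miR-195a-5p and miR-497a-5p, whose genes Mir195a and Mir497 lie close together on chromosome 11 and are both on the contig chr11_JH584327_alt. The seed AGGGAGG is shared by miR-6967-5p and miR-7016-5p, which come from chromosomes 17 and 4. The remaining seeds were each found in 1 mature strand of the set. miR-34a is a target of p53, miR-142a is abundant in blood cells, and miR-219a is known from oligodendrocytes. All 65 alternate loci of the microRNA class had exactly the span of their reference locus, as did all 9 loci of small nucleolar RNAs. Mir219a-1 spanned 110 bases on the chromosome and on each of 3 contigs of chromosome 17. Mir34a spanned 102 bases, Mir142 spanned 64 and Mir301 spanned 86 at both places. By comparison, spans were equal at 382 of 1221 loci of protein-coding genes (31.3%) and at 31 of 109 loci of long non-coding RNAs (28.4%).

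The reference promoter of Ren1 is shown because its paralogue Ren2 had a locus on an alternate contig and none elsewhere in the table. Ren1 encodes renin, the protease that starts the angiotensin pathway of blood pressure control. The window runs from 250 bases before to 50 bases after the gene start on the plus strand of GRCm38.p6, at chr1:133350424-133350723, and capitals mark the letters TATAAA.
Ren1: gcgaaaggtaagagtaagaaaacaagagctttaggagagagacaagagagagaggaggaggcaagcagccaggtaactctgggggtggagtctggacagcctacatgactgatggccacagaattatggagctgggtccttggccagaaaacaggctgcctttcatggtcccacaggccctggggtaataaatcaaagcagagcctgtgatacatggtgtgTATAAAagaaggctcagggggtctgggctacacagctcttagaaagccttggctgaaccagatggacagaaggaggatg

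The TATAAA letters in the Ren1 window began 29 bases before the gene start, on the strand of the gene. TATAAA on either strand occurred in 4473 of 32851 RefSeq promoter windows of this length (13.6%), and in 123 of the 957 windows found for 779 of the alternate-contig symbols (12.9%). CCAAT on either strand occurred in 37.4% of all windows and 37.0% of the members' windows. The Ren1 window held no CCAAT. Both letter strings were thus at nearly the same share in the members as in all promoters. No promoter window was read for Ren2, whose locus is only on a contig.

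The NK cell receptor genes Klra3 and Klra8 are members of the Klra (Ly49) family, and their reference promoters are shown because Klra3 lay in another place on its contig while Klra8 kept its order. Both genes run on the minus strand, and the windows are chr6:130337577-130337876 for Klra3 and chr6:130129849-130130148 for Klra8. Capitals mark TATAAA, its reverse complement TTTATA, and CCAAT.
Klra3: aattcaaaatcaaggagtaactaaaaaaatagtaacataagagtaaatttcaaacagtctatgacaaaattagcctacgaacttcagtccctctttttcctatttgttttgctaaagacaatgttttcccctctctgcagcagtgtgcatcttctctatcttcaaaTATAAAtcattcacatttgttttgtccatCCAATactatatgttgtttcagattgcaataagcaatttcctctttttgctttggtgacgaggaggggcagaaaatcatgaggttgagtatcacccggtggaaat
Klra8: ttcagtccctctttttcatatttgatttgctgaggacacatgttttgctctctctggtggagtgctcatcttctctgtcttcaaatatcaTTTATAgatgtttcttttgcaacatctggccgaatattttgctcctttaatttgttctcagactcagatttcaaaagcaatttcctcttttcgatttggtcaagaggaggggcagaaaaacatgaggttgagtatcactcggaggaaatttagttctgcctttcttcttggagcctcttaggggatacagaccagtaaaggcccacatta

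In the Klra3 window TATAAA lay 84 bases before the start on the gene's strand, and in the Klra8 window it lay 160 bases before the start on the opposite strand. RefSeq gives Klra8 another start with an overlapping window (130129786 to 130130085), not shown, in which the same letters lie 223 bases before that start and a CCAAT is present. These matches are descriptions of the letters and were not tested as binding sites.

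The alternate loci were spread unevenly over the chromosomes. Contigs of chromosome 17, which carries the MHC, held 621 of the 1435 loci (43.3%), with 264 symbols on 10 contigs. That number equals 21.6% of the 1221 symbols on chromosome 17 itself, with H2- and Zscan4 symbols left out. Among the 264, Olfr100 had no locus on the chromosome. Contigs of chromosome 11 held 273 loci (19% of all) on 15 contigs, and contigs of chromosome 4 held 170 (11.8%) on 12 contigs. Chromosomes 6 and 16 followed with 91 and 68 loci, and chromosomes 3 and 1 had 48 each. The Y chromosome had 11 loci of 8 symbols, which is 8.6% of its 93 symbols. Chromosomes 9 and 10 had none, and 18 had 2. In all, 19 chromosomes were named as a parent. A single contig named no chromosome. It held Btbd35f7, whose 1960 bases equalled its span on chromosome X.

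**Figure D1:**
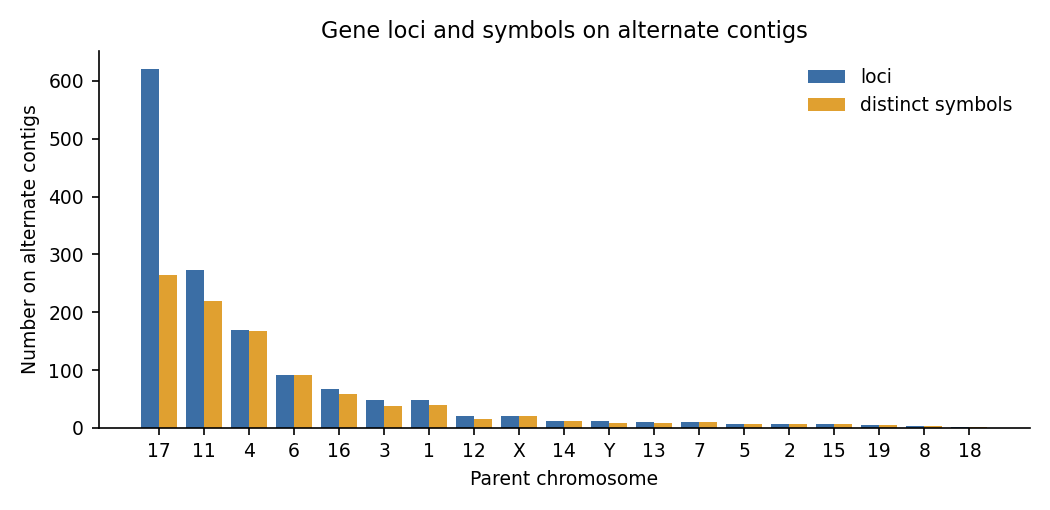
Number of loci (blue bars) and distinct symbols (yellow bars) on alternate contigs for each parent chromosome, with bars starting at 0. Chromosome 17 stands highest with 621 loci of 264 symbols, followed by chromosome 11 with 273 loci and chromosome 4 with 170.

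Most symbols had a single alternate locus. Of the 984, 724 (73.6%) had 1, 72 had 2, 185 (18.8%) had 3 and 3 had 4. No contig held more than 1 locus of the same symbol, so several loci mean several contigs. Chromosome 17 supplied 195 of the symbols with 2 or more loci, and chromosome 11 supplied 27. The 3 symbols with 4 loci were Nlrp1a, Nlrp1b and Olfr96.

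Nlrp1a and Nlrp1b encode sensors that assemble an inflammasome, a complex that activates inflammatory caspases, and Nlrp1b senses anthrax lethal factor in some strains. Nlrp1a had nearly one size everywhere. Its spans were 53523, 53453, 53548 and 53393 bases on the 4 contigs and 53508 on chromosome 11, with a coding length of 3549 bases in each. Nlrp1b varied far more. It spanned 40001, 53145, 190415 and 178726 bases on the same 4 contigs against 77632 on the chromosome. The 40001-base and 53145-base loci were at an end of their contig. Coding length of Nlrp1b nevertheless stayed between 3519 and 3534 bases, with 15 or 16 exons. The neighbouring pseudogene Nlrp1c-ps was on 2 of these contigs, at 49635 and 45590 bases against 42803.

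Olfr96, an olfactory receptor gene, spanned 1051 bases on 3 contigs and on chromosome 17. On the contig chr17_GL456021_alt it spanned 301 bases with a coding length of 265 against 942. The next symbols in alphabetical order, each with 3 loci, are mostly uncharacterised transcripts. Of these, 2300002M23Rik was 1461 bases at each place, and 1110038B12Rik was 2237 bases on 1 contig and the chromosome and 2281 on the other contigs. 1700031A10Rik spanned 9621, 9621 and 9994 bases against 9641. 2410137M14Rik spanned 3535, 3535 and 3533 bases against 3537. On chromosome 11, AA465934 spanned 2905, 2934 and 2912 bases against 2939, AI450353 spanned 1487, 1500 and 1492 against 1500, and AI662270 spanned 3005, 3005 and 3000 against 3009. Exon numbers of these uncharacterised genes were equal to the reference at each locus.

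**Figure D2:**
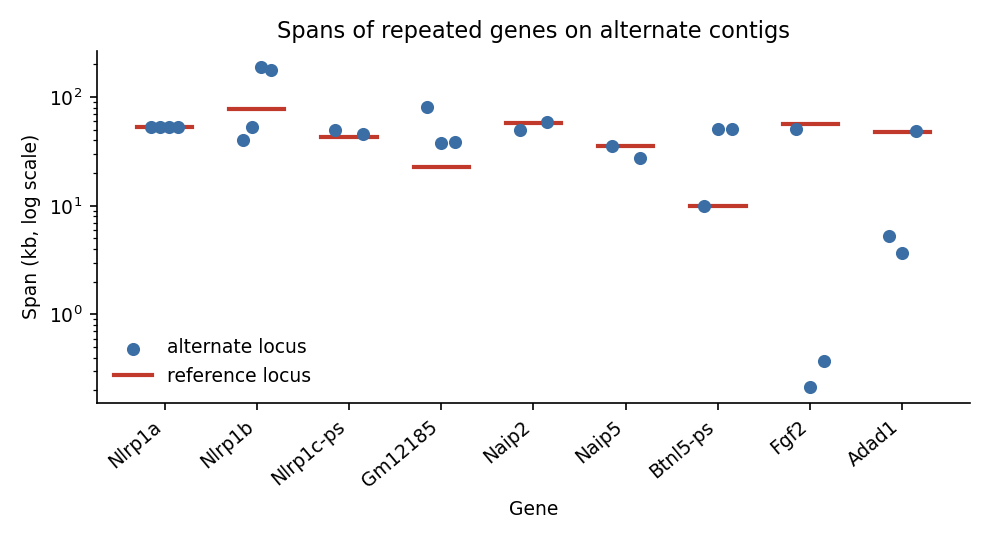
Span in kb on a log axis of 9 genes found on several contigs, with a blue point for each alternate locus and a red line for the reference locus. Points of Nlrp1a lie on the reference line, those of Nlrp1b lie on both sides of it, from 40001 to 190415 bases against 77632, and Fgf2 has 2 points far under its line.

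The 4 symbols with a locus on an alternate contig and none anywhere else in the table were Hbb-b1, Hbb-b2, Olfr100 and Ren2. Each is a member of a family that also has genes on the reference chromosome.

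Hbb-b1 and Hbb-b2 encode the adult beta-globin chains of strains with the diffuse haemoglobin type. On chr7_GL455989_alt, Hbb-b1 occupied positions 38285 to 39684 (1400 bases) and Hbb-b2 positions 53494 to 54867 (1374 bases). Both ran on the plus strand with 3 exons and a coding length of 444 bases. They lay beyond the embryonic globin genes Hbb-y and Hbb-bh1 and the globin-like gene Hbb-bh2 in the same order along the contig. On chromosome 7, Hbb-bs (1406 bases) and Hbb-bt (1400 bases), the adult genes of the single haemoglobin type, stood in their place with the same coding length of 444 bases. Hbb-bs and Hbb-bt had no alternate locus. Thus 5 of the 7 symbols starting with Hbb (71.4%, beside 3.76% of all symbols) had a locus on the contig. Hbb-y spanned 1392 bases on it against 1454, Hbb-bh1 spanned 1528 against 1525, and Hbb-bh2 spanned 1362 against 1398. The contig reads in the opposite direction to the chromosome, on which these genes are on the minus strand.

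Ren2 encodes the submandibular form of renin that some strains carry beside Ren1. On chr1_GL455991_alt it occupied positions 159748 to 169505 on the minus strand, a span of 9758 bases with 9 exons and a coding length of 1275. Ren1 on the same contig spanned 9643 bases against 9647 on chromosome 1, also with 9 exons, and its coding length was 1209 bases at both places. The gap between Ren1 and Ren2 was 20921 bases, and the next gene after Ren2, Kiss1, was 21177 bases further on. All 7 compared loci of this contig were on the opposite strand to the chromosome, Sox13, Etnk2, Golt1a and Plekha6 among them. The order of start positions was reversed at 5 of 6 steps, with Gm19461, which lies inside the span of Plekha6, at the remaining step. Olfr100, an olfactory receptor gene, was a single exon of 927 bases on chr17_JH584308_alt, at positions 80755 to 81681 on the minus strand.

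A reference locus on the parent chromosome was found for 1430 alternate loci of 979 symbols, and their spans were compared. The span was equal to the base at 494 loci (34.5%), longer on the contig at 406 (28.4%) and shorter at 530 (37.1%). Differences were small at most loci. Both spans lay within 1% of each other at 1142 loci (79.9%) and within 5% at 1274 (89.1%), and the median log2 ratio of alternate to reference span was 0. At 103 loci (7.2%) the alternate span was under 90% of the reference span, and at 61 it was under 50%. At 23 loci it was over 110%, and at 10 over 200%. Neighbouring loci share a contig, so these counts are not over independent units.

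The 192 loci that were first or last on their contig were counted apart. They made up 80 of the 103 loci under 90% (77.7%) and 58 of the 61 under 50% (95.1%). Put the other way, 41.7% of the first or last loci were under 90% of the reference span, against 1.86% of the 1238 inner loci. As a description of another kind of added contig, 370 loci on 60 "fix" contigs, which correct the reference itself, had an equal span at 286 (77.3%). They were within 1% at 307 (83.0%), and the difference from the alternate contigs was not tested.

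**Figure D3:**
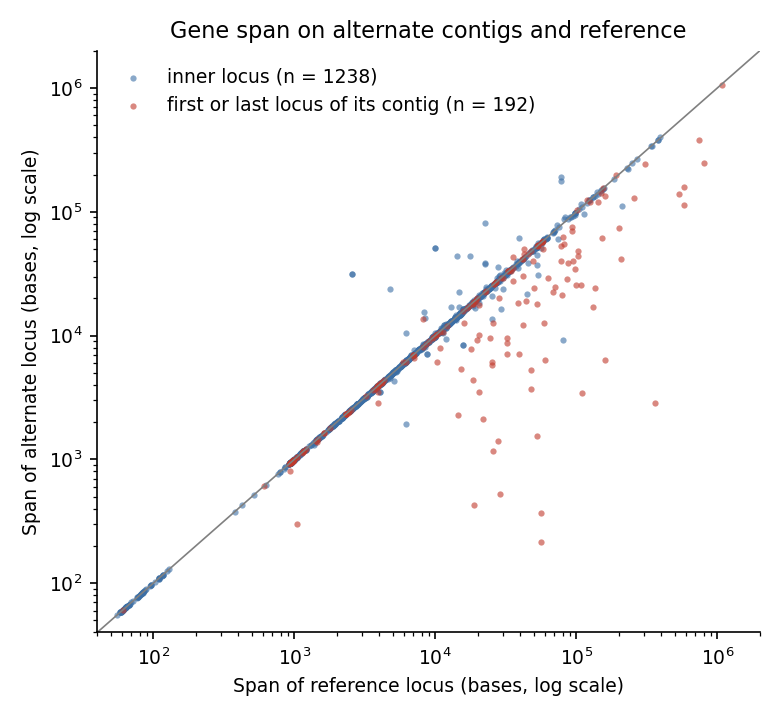
Alternate span against reference span for the compared loci, both in bases on log axes, with 192 first or last loci of a contig in red and 1238 inner loci in blue. Most points lie on the grey line of equal span, and the points far under it are mostly red.

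The 8 loci with the smallest ratio were all first or last on their contig. Fgf2, a fibroblast growth factor, spanned 216 and 372 bases on 2 contigs against 56178 on chromosome 3, and 51071 on another contig. Ntng1, an axon guidance cue, spanned 2864 bases against 363423. Pik3cd, the lymphocyte PI3-kinase subunit, spanned 1542 bases with 2 exons against 52462 with 25. Fam83f, Ehbp1l1, Sgpp2 and Spata5 completed the set, at 522, 431, 3427 and 6320 bases against 28579, 18949, 109941 and 159147. These loci are fragments in the annotation, each with fewer exons than the reference.

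Among inner loci, which have a neighbour on both sides, the shortest were Grap2, Gm14685, Zcchc17, Tmtc1, Gm6034, Trim7 and Mas1 (chosen after their values were seen). Grap2, a T cell adaptor, spanned 9190 bases against 80258 with 4 exons against 8. Zcchc17 spanned 21789 bases against 44610, also with 4 exons against 8. Mas1, an angiotensin peptide receptor, spanned 16270 bases against 29303, and its coding length was 975 bases at both places. Trim7, an antiviral ubiquitin ligase gene, spanned 13734 bases against 25050 with a coding length of 1533 at both. The last 2 had a shorter span with an equal coding length.

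The 8 loci with the largest ratio were all inner loci. Gm11127, a gene of the MHC class I region, spanned 31343 and 31339 bases on 2 contigs of chromosome 17 against 2556. Btnl5-ps, a butyrophilin-like pseudogene, spanned 50858 bases on the same contigs against 10025, and 10020 on a further contig. Tcl1b5, of the Tcl1 family of early embryo genes, spanned 23930 bases against 4802 with an equal coding length of 366. Gm12185, an interferon-inducible GTPase gene, spanned 80688 bases on 1 contig against 22527, and 38019 and 38362 on others, with a coding length of 2508 at each place. Klra3 spanned 44228 bases against 14338, and Klrh1 spanned 44022 against 17703. The loci of Tcl1b5 and Gm12185 thus had a longer span with an equal coding length, and where the added bases lay was not examined.

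Exon numbers differed at few loci. The highest exon number of any transcript was equal at 1300 of 1430 loci (90.9%), lower on the contig at 78 (5.45%) and higher at 52 (3.64%). Of the 78 with fewer exons, 66 (84.6%) were first or last on their contig. The 6 with the greatest loss were all of that kind. Zzef1 had 11 exons against 55, Igf2r (the receptor that clears IGF2) had 9 against 48, and Dscam (a neuronal adhesion molecule) had 2 against 33. Bdp1, a subunit of the RNA polymerase III factor TFIIIB, had 13 exons against 39. Tenm1 had 7 against 33 and Pik3cd 2 against 25.

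Loci with more exons were mostly of other genes. Rex2, a zinc finger gene, had 13 exons against 5, and its exonic bases were 1448 against 3998. 1600002D24Rik had 9 exons against 4, Klrh1 had 12 against 7, and Gm9573 had 6 against 3 on 2 contigs. Camta1, at an end of its contig, had 26 against 24, with 7968 exonic bases against 10379 and a span of 249171 bases against 802246. At the Gm9573 and Camta1 loci, among others, adjacent exon blocks were separated by 1 to 3 bases, which is far shorter than an intron. The Camta1 locus held 4 gaps of this kind. Such gaps were found in 43 of the 2664 member rows (1.61%), against 52 of 47053 rows on assembled chromosomes (0.111%) and 6 of 660 on fix contigs (0.909%). There were 63 such gaps in 35 symbols, of which 25 were of 1 base, 32 of 2 and 6 of 3. None of the 35 symbols had such a gap at its reference locus. A gap of this size stood in 21 of the 52 loci with more exons (40.4%). Map3k11, a kinase of the JNK pathway, is an example chosen after its values were seen, with 14 exons against 12 over an identical span of 13735 bases. Joining blocks 3 bases or less apart left 32 loci with more exons than the reference.

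Exonic and coding length were more alike than span. Exonic bases were equal at 929 loci (65.0%), and of the 936 loci whose span differed, 445 (47.5%) had equal exonic bases and 807 (86.2%) an equal exon number. Single-exon genes had an equal span at 249 of 277 loci (89.9%), and genes with several exons at 245 of 1153 (21.2%). Of the 1217 loci with a coding part at both places, 1086 (89.2%) had the same coding length. Of the 131 others, 71 (54.2%) were first or last on their contig. Among the remaining 60 inner loci, coding length differed by a multiple of 3 in 55 (91.7%), the size of whole codons. Among the 71 first or last loci the same was true of 28 (39.4%).

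Coding status itself differed at 10 loci. C4a, the sex-limited complement C4 protein, was annotated without a coding part on chromosome 17, yet with a coding length of 5205, 5208 and 5208 bases on the 3 contigs that carry it. Its span hardly differed, at 14368, 14353 and 14353 bases against 14369. Its paralogue C4b, the main complement C4 gene, spanned 15518, 15520 and 15520 bases on these contigs against 15518. Slfn10-ps, named as a pseudogene, likewise had no coding part on chromosome 11 and a coding length of 2784, 2784 and 2787 bases on 3 contigs, with 5 exons throughout. In the other direction 4 loci, those of Ehbp1l1, Pik3cd and Gm14685 among them, were coding at the reference and not on a contig. The Ehbp1l1 and Pik3cd loci were at the end of their contig, and the Gm14685 locus was an inner one with 3 exons against 4.

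NK receptor genes were listed by name, as symbols starting with Klra, Klrb, Klrc, Klrd, Klre, Klrg, Klrh, Klri, Klrk, Clec2 or Clec12. Of these 40 symbols, 14 (35%) had a locus on chr6_JH584264_alt, against 3.76% of all symbols. Whether each of the 40 is a receptor or lies in the NK complex was not checked. The Klra family encodes MHC class I receptors of mouse NK cells, in both inhibitory and activating forms. It had 9 of 13 members there (69.2%). The 4 without an alternate locus were Klra2, Klra9, Klra10 and Klra14-ps. None of the 9 had an equal span, and of the 14 symbols Klrc3 alone did, at 4204 bases.

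The Klra loci formed several classes by size. Klra4, Klra5, Klra6 and Klra8 lay within 1% of the reference, at 23039, 14221, 13915 and 14620 bases against 23255, 14237, 13922 and 14673. Klra7 was longer, at 17043 bases against 14718, with a coding length of 843 at both places. Klra17 was shorter, at 38425 bases against 45519, with 8 exons and a coding length of 825 at both. Klra1 was longer in span, at 24793 bases against 22957, but had 6 exons against 9 and a coding length of 699 against 789. Klra3 and Klra13-ps differed most. Klra3 spanned 44228 bases against 14338 with 7 exons against 8, and its coding length was 798 against 801. Klra13-ps, a pseudogene at the end of the contig, spanned 5330 bases against 15272.

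Order along the contig also differed for Klra3 and Klra13-ps. On the chromosome every Klra gene with an alternate locus runs on the minus strand, and Klra3 and Klra13-ps stand before Klra1. On the contig both were on the plus strand and came after Klra1. Between Klra1 (positions 687151 to 711943) and Klra3 (1111517 to 1155744) lay 399573 bases without any annotated locus. Klra14-ps and Klra9 were missing between Klra8 and Klra7, a gap of 66851 bases on the contig against 88706. Klra10 was missing between Klra7 and Klra1, where the contig gap of 162305 bases exceeded the 130595 of the reference.

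Other NK receptors on this contig showed the same mix. Klri1 and Klri2 spanned 19908 and 11421 bases against 19915 and 11444. Klrc1, the NKG2A receptor subunit that recognises a non-classical MHC molecule, spanned 17013 bases against 12959 with an equal coding length of 735. Klrc2 was missing between Klrc3 and Klrc1, which were 6202 bases apart against 22726. Klrh1 spanned 44022 bases against 17703, with a coding length of 561 against 672. The microRNA Mir680-1 was the remaining locus of the contig, at 109 bases in both places.

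**Figure D4:**
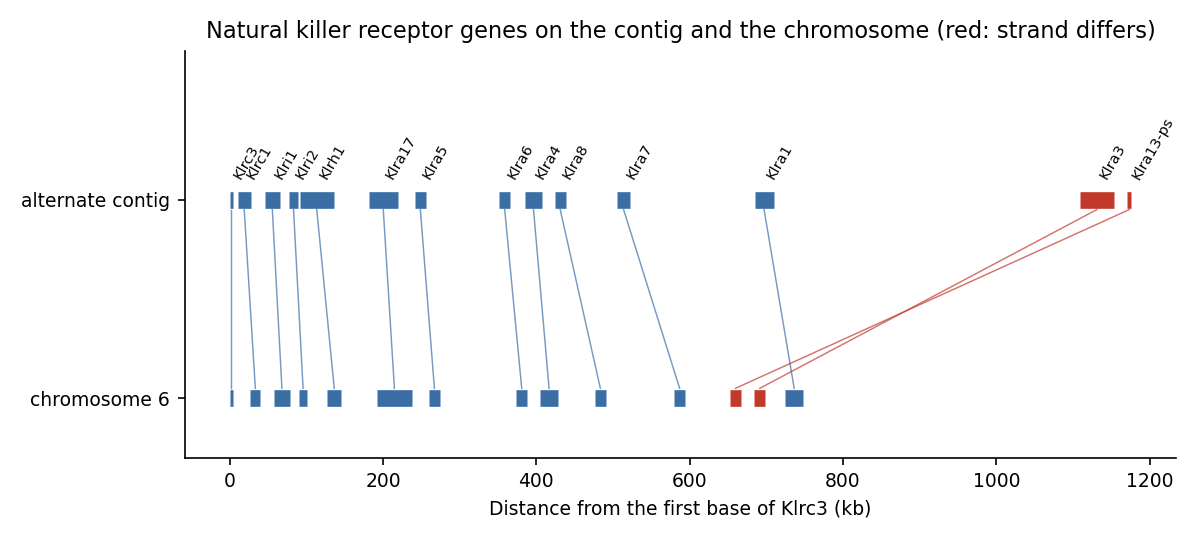
NK receptor loci along the contig (upper row) and chromosome 6 (lower row), drawn to scale in kb from the first base of Klrc3, with thin lines joining the same gene and red for genes whose strand differs. Klra3 and Klra13-ps, in red, lie before Klra1 on the chromosome and after it on the contig, beyond a stretch of 399573 bases without a locus.

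All 19 complement and MHC class III symbols listed had alternate loci, beside 3.76% of all symbols. Of their 57 loci, 20 (35.1%) had an equal span, beside 34.5% of all compared loci. C2, the complement C2 gene, spanned 19501, 19536 and 19550 bases against 19499. Cfb, complement factor B, spanned 6142, 6127 and 6127 bases against 6141. Cyp21a1, the steroid 21-hydroxylase of the adrenal cortex, spanned 3079, 3088 and 3088 bases against 3079, with a coding length of 1464 at each place. Tnf, the gene of tumour necrosis factor, was 2641 bases at each place, and its neighbour Lta, which encodes lymphotoxin alpha, was 2183, 2181 and 2181 against 2187. Both genes kept their coding length, 708 bases for Tnf and 609 for Lta. None of the 57 loci was under 90% or over 110% of the reference. The 13 antigen processing and class II region symbols likewise all had alternate loci. Of these 37 loci, 8 (21.6%) were equal, beside the 34.5% of all compared loci. The peptide transporter genes Tap1 and Tap2 spanned 9678, 9605 and 9675 bases against 9670, and 11843, 11977 and 11977 against 11843. Psmb8 and Psmb9, subunits of the immunoproteasome, spanned 3254, 3205 and 3205 bases against 3260, and 5232, 5228 and 5228 against 5232. Tapbp, which encodes tapasin, spanned 9808, 9864 and 9864 bases against 9813. Brd2, a reader of acetylated histones, spanned 10589, 10573 and 10573 bases against 10589. Of these 6 genes Tap2 alone differed in coding length, at 2109, 2112 and 2112 bases against 2109.

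Values for these genes were often the same on 2 of the contigs. The contigs chr17_JH584266_alt and chr17_JH584328_alt shared 193 symbols, and 168 of them (87%) had equal spans on both. At 114 symbols both differed from the reference, and 92 of these (80.7%) were equal to each other. The contig chr17_GL456022_alt shared 110 symbols with the first of these, of which 40 (36.4%) were equal, and its own spans equalled the reference at 82. It shared 112 symbols with the other, of which 43 (38.4%) were equal. For these further pairs, both spans differed from the reference at 26 and 29 symbols, and were equal to each other at 3 and 4 of these. The differences between pairs were not tested. The strain of each contig is not given in the sources used here.

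A list of 7 symbols held pluripotency factors and Tcf19, the neighbour of Pou5f1. Of these, Pou5f1 and Tcf19 had alternate loci (2 of 7, 28.6%, beside 3.76% of all symbols). Pou5f1 encodes OCT4, a core transcription factor of embryonic stem cells such as those studied here. It spanned 4745 bases on chr17_GL456022_alt and 4535 on chr17_JH584328_alt against 4746 on chromosome 17. On chr17_JH584266_alt neither gene was annotated, although the flanking genes Mir8094 and Cchcr1 were present and 284298 bases apart against 265643. Tcf19 spanned 4094 and 4076 bases against 4090. Nanog, Sox2, Klf4, Dppa3 and Esrrb had no alternate locus.

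For type 1 diabetes in the NOD strain, 11 of 16 listed candidate genes (68.8%) had an alternate locus, beside 3.76% of all symbols. The list was chosen with earlier results of these data known. None of its 20 loci had an equal span, beside 34.5% of all compared loci and 21.2% of those of genes with several exons. Under 90% of the reference were 4 loci, of Fgf2 and Adad1, each first or last on its contig. Cd28, Ctla4 and Icos, which encode the costimulatory and inhibitory receptors of T cells, were on 2 contigs of chromosome 1. Cd28 spanned 26997 bases on both against 26972, Ctla4 spanned 6788 on both against 6808, and Icos spanned 22451 on both against 22407. The cytokine genes Il2 and Il21 spanned 5235 and 9739 bases on each of 2 contigs against 5242 and 9878. Adad1, a testis gene next to Il2 on 2 of its contigs, had 3 loci, each first or last on its contig, at 5308, 3687 and 48426 bases against 47857. Ptpn22, a phosphatase that limits T cell receptor signalling, spanned 53042 bases against 52458. Coding length was equal at both places for Cd28 (657 bases), Ctla4 (672), Icos (603), Il2 (510), Il21 (489) and Ptpn22 (2409). The changes in span at these 6 genes therefore left the coding length as it was.

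Sensory receptors differed by family. Of 1126 olfactory receptor symbols, 107 (9.5%, beside 3.76% of all symbols) had alternate loci. An equal span was found at 152 of 179 compared loci (84.9%). That share was 34.5% over all compared loci and 89.9% over those of single-exon genes. Olfr1, Olfr101, Olfr103 and Olfr107 were equal on every contig that held them, at 4420, 1039, 942 and 1033 bases. Olfr102 was 1027 bases on 2 contigs and 1025 on 1, against 1027. Of 353 symbols starting with Vmn1r or Vmn2r, which encode vomeronasal receptors, 5 (1.42%, beside the 3.76% of all symbols) had an alternate locus. These 5 were on 1 contig of chromosome 6 and had an equal span, as did V1ra8, a vomeronasal receptor of another naming on that contig, at 840 bases. Vmn1r50, Vmn1r51, Vmn1r52, Vmn1r53 and Vmn1r54 spanned 933, 8003, 930, 1122 and 948 bases. Major urinary proteins carry pheromones, and 11 of their 22 symbols (50%, beside 3.76% of all symbols) had an alternate locus. Of these loci, 3 (27.3%) were of equal span, beside 34.5% of all compared loci. Mup6, Mup7 and Mup9 were equal at 3794, 4007 and 3907 bases. Mup20, known as darcin, spanned 3909 bases against 3884. Mup2, Mup3 and Mup4 spanned 3949, 3814 and 3868 bases against 3944, 3842 and 3864. Mup13 and Mup21 spanned 3894 and 3033 bases against 3920 and 3010. Mup19 spanned 2873 bases against 3897, at the end of its contig, and its coding length of 543 was that of the reference.

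Zinc finger genes named Zfp had 14 of 406 symbols on alternate contigs (3.45%, beside the 3.76% of all symbols). None of their 16 loci had an equal span, beside 34.5% of all compared loci. Zfp57, which guards imprinted methylation, spanned 9541, 9541 and 9596 bases against 9567. Zfp3, Zfp362, Zfp37 and Zfp523 spanned 8485, 33036, 18999 and 28700 bases against 8482, 33028, 19010 and 28691, each with an equal coding length. Zfp185, at the end of its contig, spanned 19087 bases against 44205. On chr4_GL456053_alt, 10 reference genes were missing in 3 gaps between neighbours. Zfp600, Zfp992, Zfp981 and 1700095A21Rik were missing between Zfp987 and 4933438K21Rik, which were 71256 bases apart against 936741. Zfp534 and Zfp984 were missing between Zfp979 and Rps19-ps3, although the contig gap there was 686155 bases against 179268. Tripartite motif genes had 13 of 71 symbols (18.3%, beside 3.76% of all symbols). Of their 27 loci, 2 (7.41%) were equal, beside 34.5% of all compared loci. Trim26, an E3 ubiquitin ligase of the MHC region, spanned 22502 bases on 2 contigs and 22253 on another, against 22253, and its coding length was 1635, 1635 and 1638 against 1638. Trim10, Trim15 and Trim31 of the same region spanned 8276, 6523 and 12075 bases on the contig chr17_JH584266_alt against 8260, 6520 and 12088. Trim25, which activates the RNA sensor RIG-I, spanned 20755 bases against 20891, and Trim37 spanned 123772 against 123786. Cytochrome P450 genes had 1 of 112 (0.893%, beside 3.76% of all symbols), Cyp21a1. No member of the 74 defensin or 113 keratin symbols had an alternate locus, beside 3.76% of all symbols. Predicted genes and clone-named transcripts had 99 of 4263 symbols (2.32%, beside 3.76% of all symbols). Of their 131 loci, 38 were equal (29.0%, beside 34.5% of all compared loci). Of the first 6 in order, 0610010K14Rik, 0610039H22Rik, 1110028F11Rik and 1700003M07Rik spanned 2712, 4197, 5853 and 4779 bases against 2711, 4176, 5804 and 4765. 1110038B12Rik is given above, and 1600002D24Rik, at an end of its contig, spanned 34543 bases against 97955.

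Genes of innate immunity were present on contigs of chromosomes 11, 13 and 18. All 10 Schlafen symbols, a family linked to growth arrest of immune cells and viral restriction, were on 3 contigs of chromosome 11 each. Over all symbols, 3.76% had an alternate locus. Beside 34.5% of all compared loci, 2 of the 30 Schlafen loci (6.67%) had an equal span. Those were both of Slfn1, at 5851 bases on 2 contigs against 5851, with 5852 on the other. Slfn14 spanned 11809, 12134 and 12145 bases against 11615, and Slfn8 spanned 18659, 18813 and 17188 against 18653. Immunity-related GTPases, which disrupt vacuoles of intracellular pathogens, had 10 of 15 symbols (66.7%) with alternate loci. Of their 19 loci on chromosomes 11 and 18, 2 (10.5%) were equal. Irgm1 spanned 6253, 6194 and 6177 bases against 6176. These lists were added after the data had been seen. On contigs of chromosome 13, Naip2 and Naip5, which encode sensors of bacterial proteins, had 2 loci each. Naip2 spanned 50123 and 59554 bases against 58060, and Naip5 spanned 35157 and 27448 against 35598 with a coding length of 4212 at each place. The 50123-base Naip2 locus and both Naip5 loci were first or last on their contig.

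Order of start positions and strand along a contig were compared with the chromosome for 102 contigs. On 62 they were the same, on 19 the whole contig was reversed, on 12 they were mixed (the renin contig with its nested gene included), and 9 had a single locus. Reference genes missing between 2 neighbours that were both on the contig numbered 56 symbols, 43 of them protein coding, in 30 gaps on 17 contigs. Of the 56, 12 had a locus on another alternate contig. In 15 of the 30 gaps, the neighbours were closer together on the contig than 50% of the reference distance. The gap with most missing genes was on chromosome 1 between Icos and Adam23. There 12 genes, Nrp2, Pard3b and Ndufs1 among them, were missing, and the neighbours were 483259 bases apart against 2445570. Ifi203 and Ifi204, of the interferon-inducible DNA sensor family, were 5185 bases apart on each of 2 contigs against 153480, with Mndal and Ifi211 missing between them. Tgtp1, an immunity-related GTPase gene, was missing from 3 contigs of chromosome 11 with a gap there. A single pair of genes overlapped on the same strand on a contig and not on the chromosome. Tcl1b2 and Tcl1b1 shared 6933 bases on chr12_GL456349_alt and lay 4478 bases apart at the reference.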

How the data were processed

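Pol I CUT&Tag was made from 2 control and 2 auxin libraries, and the only file used here is an annotation in 12-column BED layout. The submitters' processing notes name mm10 as build, with FastQC, Bowtie2, deepTools and bedtools. What each tool did, its version, and the making of the annotation were not given in the sources used here. The score column, as deposited by the authors, holds 0 in every row. The other deposited values are positions, block numbers and block sizes in bases. Starts are printed counted from 1. Rows of one symbol, contig and strand sharing at least 1 base were merged. A reference locus is the locus of the same symbol on the parent chromosome. Classes and sequences came from RefSeq (GRCm38.p6), and all 984 symbols matched as current symbols. Missing genes were sought in the gap between neighbours at most 3 Mb apart at the reference. Genes nested in another missing gene, such as Pard3bos2 in Pard3b, were counted.

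Python 3.11.15, pandas 2.3.3, numpy 2.4.6 and matplotlib 3.10.9 were used. The merging of rows into loci was tested on simulated data, and the comparison with the reference was not. No test between groups was run, since no value per library was analysed here. Named genes are the 10 symbols with most alternate loci, those found only on alternate contigs, the 8 loci at each end of span ratio, the 6 at each end of exon number, every Klra gene and up to 6 first members of each list. Other genes named as neighbours, missing genes, coding changes or family examples were chosen after their values were seen. The members and lists were chosen with earlier results of these data known.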

Additional observations from a re-analysis of the deposited data

How the results depend on the processing

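Counting each transcript row gave 2664 in place of 1435 loci, while merging by symbol and contig gave 1435 and keeping the H2- and Zscan4 symbols gave 1543 loci and 1025 symbols. Loci of equal span rose in number from 494 to 1142 when a difference of 1% was allowed and to 1274 with 5%, by construction of the wider tolerance. Loci with fewer exons numbered 12 in place of 78 without the first and last loci of each contig, and loci with more exons numbered 32 in place of 52 once blocks 3 bases or less apart were joined. These last alternatives, and leaving out the contig with most loci (1231 loci, 407 of equal span), were chosen after seeing the data. Symbols found only on alternate contigs stayed at 4, and the median log2 span ratio at 0, under the alternatives run for them. No paired analysis was possible because no column carries a value per library. Read numbers were not analysed here, and depth is unknown. Strains of the contigs and their sequences were not used here.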

Other observations

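Other families on alternate contigs, chosen after their values were seen, are given as values. For scale, 3.76% of all symbols had an alternate locus, and 34.5% of all compared loci had an equal span. The peptidylarginine deiminases, which convert arginine to citrulline in proteins, had all 5 members on chr4_GL456009_alt, none with an equal span. Padi1 spanned 32803 bases against 32798, Padi2 spanned 46236 against 46227, Padi3 spanned 25312 against 25280, Padi4 spanned 27742 against 28696 and Padi6 spanned 15300 against 15289. Each had 16 exons at both places. The coding length of Padi3 was 1998 bases against 1995, and that of Padi4, which acts on histones in neutrophils, was 1998 against 2001.

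The region of chromosome 16 that matches the human DiGeorge interval had 20 of 20 listed symbols on alternate contigs, with 26 loci on 6 contigs. This list was made after the data had been seen, so its full share carries no weight. An equal span was found at 10 of the 26 loci (38.5%, beside 34.5% of all compared loci). Tbx1, the transcription factor of the pharyngeal arches, spanned 9695 and 9693 bases against 9693, with a coding length of 1590 at each place. Dgcr8, the partner of Drosha in microRNA processing, spanned 35200 bases against 35205. The Xlr genes of chromosome X are a duplicated family that includes imprinted members. They had 7 of 9 symbols (77.8%, beside 3.76% of all symbols) on 2 contigs. Xlr4b was equal at 8121 bases, and Xlr3c spanned 7938 bases against 10851 at the end of its contig. Of the Ifi200 family, 6 of 13 symbols (46.2%, beside 3.76% of all symbols) had alternate loci. Ifi202b spanned 10071, 18324 and 17727 bases against 20276. Its 10071-base and 17727-base loci were first on their contig.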
